A study of Mus musculus with 11 samples.

Results

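The 50 mouse genes described here act in G2 phase and mitosis. They were chosen by symbol from a list of well-known genes for the mitotic kinases, the spindle, the kinetochore, condensin and cytokinesis. Earlier results of these data were known when they were chosen. Of the 50, 49 had a measured feature among the 23185 genes that the platform annotation names. Cyclin B1 (Ccnb1) was not analysed here, because the annotation at hand pairs no feature with its symbol.

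A dividing cell switches these genes on together late in S phase and in G2. CDK1 bound to a B-type cyclin then starts mitosis, the spindle checkpoint holds chromosome separation until all kinetochores are attached, and the anaphase-promoting complex ends mitosis by marking cyclin B and securin for destruction. Bile duct epithelium of an uninjured liver divides rarely, and the liver diets used here are known for making ducts grow out as a ductular reaction.

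Expression was measured on 11 one-colour whole-transcript arrays of RNA from sorted mouse liver cells. The groups were 3 arrays of YFP+ cells from mice given DDC (diethoxycarbonyl-dihydrocollidine, a bile duct injury diet, for 5 weeks), 3 of YFP+ cells from mice given CDE (choline-deficient, ethionine-supplemented diet), 2 of YFP+ cells from untreated mice (UTR), and 3 of YFP- cells, also untreated. YFP is a lineage label. The labels used here do not name the promoter that drives it. All samples were taken from the non-parenchymal pellet after perfusion and digestion, and dead cells were left out by a viability stain. The protocol mentions 4 DDC mice but ties no mouse to an array, and the labels do not say whether replicate arrays are different mice. The p-values below therefore reflect array-to-array spread, which may be technical. Strain, sex and age are not given in the labels used here.

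The values are deposited log2 expression values, and array medians ran from 5.63 to 5.77. The 10 biliary markers averaged 10.33 to 10.48 on the DDC arrays, 10.05 to 10.17 on the CDE arrays and 10.12 to 10.34 on the UTR arrays, against 4.94 to 8.04 on the YFP- arrays, so the duct markers were high on all YFP+ arrays. The 3 YFP- arrays differed among themselves. Lymphocyte markers averaged 10.15 on YFP- replicate 2, against 4.92 at the lowest YFP- array, and 1 YFP- array (replicate 1) held the 8.04 of biliary markers. The YFP- arrays thus carried markers of several liver cell types.

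Many promoters of genes of this kind carry a short element near the transcription start, the cell cycle homology region (CHR), that the DREAM and MuvB complexes are known to bind, together with CCAAT boxes. The RefSeq promoter table of build GRCm38.p6, with 250 bases before and 50 after each start, held 39 of the 49 measured genes. The CHR letters TTTGAA, searched on both strands, stood in 71.8% of these 39 genes and in 18.5% of the 17491 protein-coding genes in the same table. Within 100 bases before to 50 after the start the shares were 66.7% and 7.94%. CCAAT, also on both strands and allowed to share bases with TTTGAA, was found in 71.8% and 42.3%, and in at least 2 copies in 43.6% and 14.6%. Both motifs together stood in 61.5% of the 39 genes and in 7.4% of all. A match is a description of the letters and not a bound site.

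The following stretches show the CHR letters, in capitals, with the flanking bases, in genes to which the values below return. Each is written 5′ to 3′ on the gene's own strand, and TTCAAA is the motif read from the other strand.
Cdk1, chr10:69352910-69352939 of GRCm38.p6, minus strand: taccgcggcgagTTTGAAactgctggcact
Ccnb2, chr9:70421533-70421562 of GRCm38.p6, minus strand: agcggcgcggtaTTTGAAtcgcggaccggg
Top2a, chr11:99024195-99024224 of GRCm38.p6, minus strand: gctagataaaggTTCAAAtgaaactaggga
Ube2c, chr2:164769888-164769917 of GRCm38.p6, plus strand: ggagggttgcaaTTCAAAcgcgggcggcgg
Cenpa, chr5:30666890-30666919 of GRCm38.p6, plus strand: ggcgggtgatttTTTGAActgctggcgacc
Kif11, chr19:37376351-37376380 of GRCm38.p6, plus strand: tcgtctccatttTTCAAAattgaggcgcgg
Ncapg, chr5:45669883-45669912 of GRCm38.p6, plus strand: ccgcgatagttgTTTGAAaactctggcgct
Cdc20, chr4:118437344-118437373 of GRCm38.p6, minus strand: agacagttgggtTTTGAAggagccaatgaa
Plk1, chr7:122159453-122159482 of GRCm38.p6, plus strand: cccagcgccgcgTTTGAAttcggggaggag
Racgap1, chr15:99651634-99651663 of GRCm38.p6, minus strand: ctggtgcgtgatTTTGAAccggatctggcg
Kif23, chr9:61946780-61946809 of GRCm38.p6, minus strand: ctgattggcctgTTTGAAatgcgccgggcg
In Cdk1 this match lay 15 bases before the start, in Top2a 23, in Ube2c 29, in Ncapg 30, in Kif11 19 and in Cdc20 18. In Ccnb2, Cenpa, Plk1, Racgap1 and Kif23 it lay just after the start. Cdk1 also held 3 copies of CCAAT, Top2a and Ube2c 6 each, Ccnb2 3 and Cdc20 2. A further match lay 71 bases before the start in Cdk1, 167 in Ccnb2 and 179 in Top2a. Bub1, Birc5, Pttg1, Cenpe, Nuf2, Ncaph, Cdc25b, Cenpk, Mad2l1, Melk and Nusap1 had a promoter window but none with these 6 letters.

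Most mitotic genes had higher mean values in YFP+ cells of DDC-fed mice than in untreated YFP+ cells, although none passed the adjusted test. Of the 49 genes, 48 had a higher mean in DDC, against 52.8% of all genes, and the median difference was 0.52 log2 units, against 0.01 over all genes. In 30 of 49 genes all 3 DDC arrays lay above both UTR arrays, against 12.7% of all genes. An unadjusted p under 0.05 with a higher mean was found for 26 of 49, against 4.74% of all genes. By limma, 0 of the 49 passed an adjusted p of 0.05, which 0.0949% of all genes passed on the higher side (22 genes), and the lowest adjusted p among them was 0.0691, for Racgap1. These counts describe genes that vary together and are not independent of each other. In a bulk sample, more dividing cells and more of this RNA per cell cannot be told apart.

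Arrays differed within the DDC group. Averaged over the 49 genes, the difference from the UTR mean was 0.24, 0.69 and 0.73 on DDC replicates 1, 2 and 3, and -0.05, 0.18 and 0.22 on CDE replicates 1, 2 and 3. DDC replicate 1 was the lowest DDC array for 40 of 49 genes, against 38.5% of all genes. A value over 1 log2 unit above the UTR mean was reached by 1, 14 and 11 genes on the 3 DDC arrays, against 0, 0 and 1 on the CDE arrays. Over all genes the shares were 0.832%, 0.949% and 0.759% on the DDC arrays and 0.462%, 0.746% and 0.531% on the CDE arrays. Without DDC replicate 1, 44 of 49 genes did not overlap with UTR and 35 had an unadjusted p under 0.05 with a higher mean, against 5.7% of all genes, while without UTR replicate 2 that count was 15, against 3.65%. Leaving out an array can only widen a gap between groups, and the share of all genes that did not overlap was 20.7% without DDC replicate 1. Of the 7 erythroid markers, 1 (Hbb-b1, adult beta globin) stood out on DDC replicate 1, at 9.18 against 4.51 and 3.57 on the other DDC arrays and 3.41 and 4.78 in UTR. Its part in the result was not tested.

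**Figure D1:**
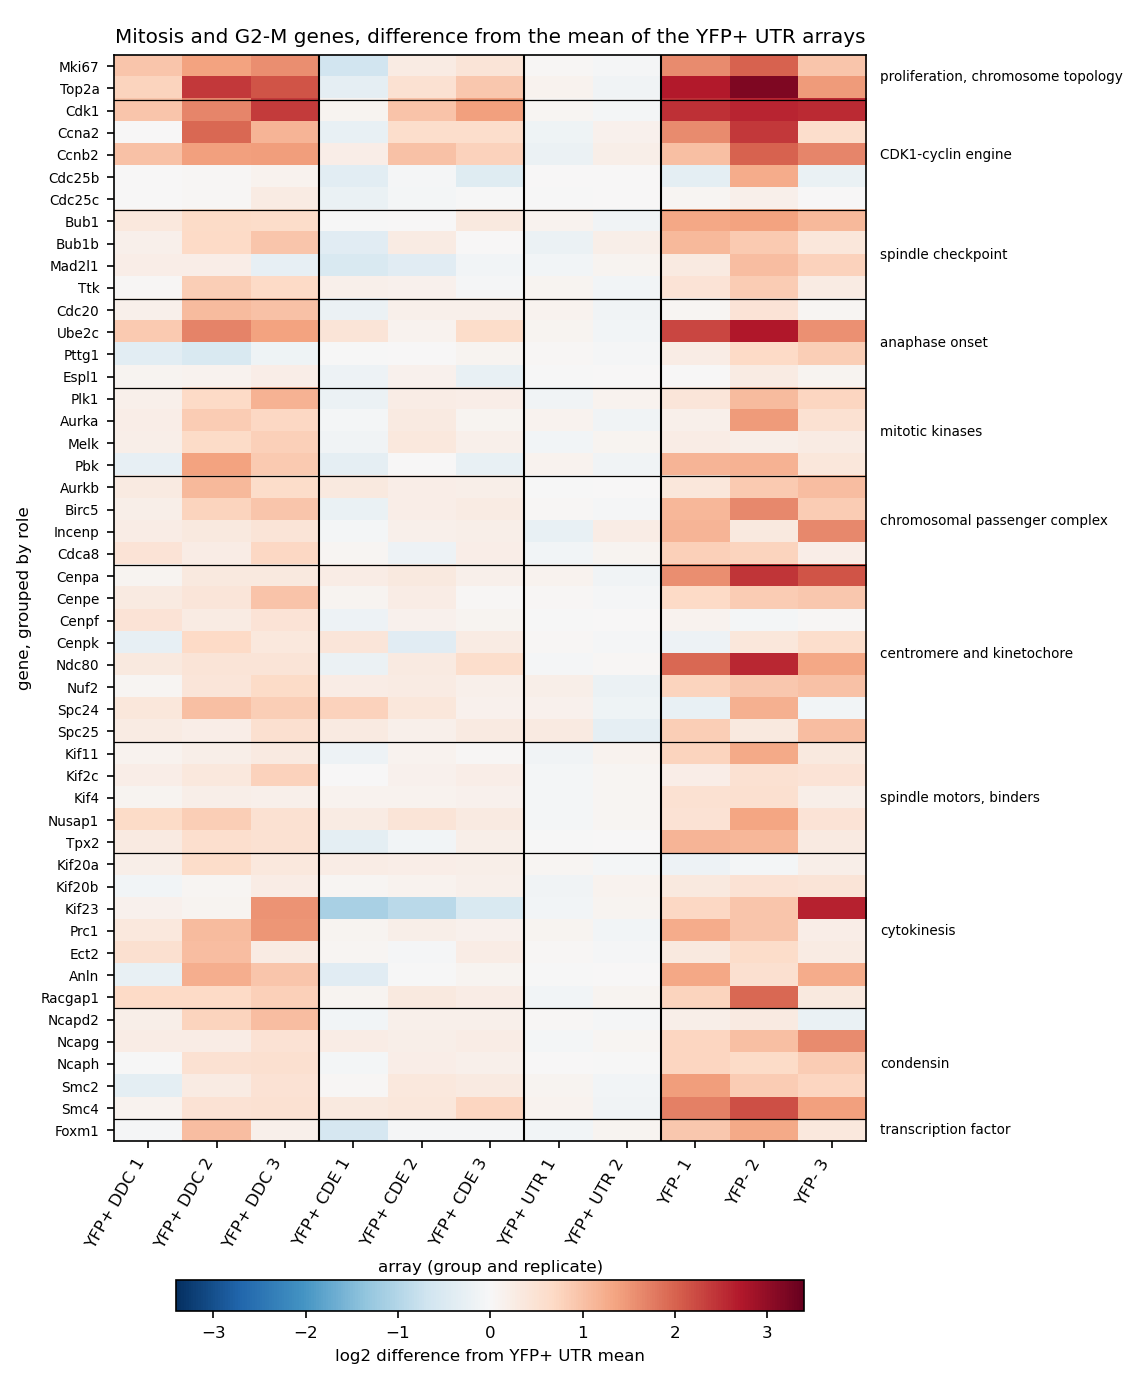
Each row is 1 of the 49 genes, grouped by role, and each column 1 array. Colour gives the log2 difference from the mean of the 2 YFP+ UTR arrays (red higher, blue lower). DDC replicates 2 and 3 are red across most roles, DDC replicate 1 and the CDE arrays are paler, and the YFP- arrays are the reddest for Cdk1, Cenpa and Ndc80.

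The 2 genes of proliferation and chromosome topology had large differences. Mki67, which coats mitotic chromosomes and is the classic marker of cycling cells, read 7.04, 7.47 and 7.69 in DDC, 5.45, 6.38 and 6.56 in CDE, 6.14 and 6.08 in UTR, and 7.73, 8.11 and 7.04 in YFP-. The 3 DDC arrays lay above every CDE and UTR array and within the range of the YFP- arrays. The DDC minus UTR difference was 1.29 ± 0.32 (SE, adjusted p = 0.199 by limma), a 2.45-fold level. Top2a, the topoisomerase that untangles sister DNA, read 5.39, 7.03 and 6.76 in DDC, 4.31, 5.14 and 5.54 in CDE, 4.74 and 4.50 in UTR, and 7.32, 7.79 and 6.08 in YFP-. It had the largest DDC minus UTR difference of the 49 genes, 1.77 ± 0.50 (adjusted p = 0.251 by limma), but DDC replicate 1 overlapped with the CDE arrays.

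Of CDK1 with its cyclins and phosphatases, 3 of 5 genes did not overlap with UTR. Cdk1, the mitotic kinase itself, read 6.28, 6.99 and 7.72 in DDC, 5.41, 6.29 and 6.73 in CDE, 5.40 and 5.26 in UTR, and 7.82, 7.92 and 7.88 in YFP-. All DDC and all CDE arrays were above both UTR arrays, and all were below the YFP- arrays. The DDC minus UTR difference was 1.67 ± 0.45. Ccnb2, a B-type cyclin that activates CDK1, read 7.41, 7.80 and 7.83 in DDC, 6.64, 7.40 and 7.19 in CDE, 6.21 and 6.61 in UTR, and 7.42, 8.42 and 8.07 in YFP-. Its 3 groups of YFP+ arrays did not overlap, with DDC above CDE and CDE above UTR, and DDC differed from UTR by 1.27 ± 0.24. Ccna2, the cyclin of S phase and G2, read 5.25, 7.18 and 6.39 in DDC against 5.08 and 5.37 in UTR, so DDC replicate 1 was inside the UTR range. The phosphatases Cdc25b and Cdc25c, which activate CDK1, differed by 0.06 ± 0.13 and 0.11 ± 0.12.

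Of the spindle checkpoint genes 1 of 4, and of the genes of anaphase onset 3 of 4, were above UTR on every DDC array. Bub1, a checkpoint kinase, was above UTR on every DDC array (4.44, 4.71 and 4.70 against 4.20 and 3.94) by 0.55 ± 0.15, while Mad2l1, the checkpoint protein that holds CDC20 inactive, differed by 0.05 ± 0.19. Cdc20, the activator of the anaphase-promoting complex, read 6.93, 7.83 and 7.76 in DDC, 6.55, 6.93 and 6.93 in CDE, 6.88 and 6.64 in UTR, and 6.82, 7.22 and 6.82 in YFP-. DDC replicates 2 and 3 were above every other array, YFP- included. Ube2c, the ubiquitin-conjugating enzyme of that complex, read 6.51, 7.30 and 6.98 in DDC, 6.06, 5.74 and 6.26 in CDE, 5.71 and 5.54 in UTR, and 7.89, 8.36 and 7.18 in YFP-. All 3 DDC arrays were above all CDE and UTR arrays, and Ube2c differed from UTR by 1.31 ± 0.23, a 2.48-fold level (adjusted p = 0.102 by limma). Pttg1 (securin), which that complex destroys, was the exception: it read 7.87, 7.73 and 8.09 in DDC, 8.23, 8.26 and 8.32 in CDE, and 8.28 and 8.20 in UTR. Every DDC array was below every CDE and UTR array, and the differences of -0.34 ± 0.12 and -0.37 ± 0.11 did not pass the test.

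Of the mitotic kinases 3 of 4, and of the chromosomal passenger complex 3 of 4, did not overlap with UTR, with differences of 0.55 to 0.67 and of 0.34 to 0.67. Plk1, the polo kinase, read 5.56, 6.06 and 6.58 in DDC, 5.20, 5.66 and 5.61 in CDE, 5.27 and 5.52 in UTR, and 5.81, 6.48 and 6.13 in YFP-, and differed from UTR by 0.67 ± 0.28. Aurkb, the kinase of the chromosomal passenger complex, read 6.08, 6.87 and 6.40 in DDC against 5.75 and 5.80 in UTR (0.67 ± 0.20), and all 3 CDE arrays (6.10, 5.99 and 5.98) were also above UTR. Neither kinase passed the adjusted test. Of the 8 centromere and kinetochore genes 4 did not overlap, with differences of 0.25 to 0.75. Cenpa, the histone variant that marks centromeres, had a different pattern, with 6.05, 6.28 and 6.28 in DDC, 6.20, 6.28 and 6.12 in CDE, 6.08 and 5.84 in UTR, and 7.53, 8.38 and 8.09 in YFP-. DDC and CDE differed by 0 ± 0.11 (95% interval -0.24 to 0.25), and no YFP+ array reached the YFP- arrays. Ndc80, which holds microtubules at the kinetochore, read 4.48, 4.60 and 4.58 in DDC, 4.10 and 4.20 in UTR, and 6.09, 6.71 and 5.47 in YFP-, again far below the YFP- arrays. Spc24, a partner of Ndc80, differed from UTR by 0.75 ± 0.24.

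The spindle motors and microtubule binders (4 of 5 above UTR on every DDC array) differed by 0.16 to 0.67, the cytokinesis genes (4 of 7) by 0.07 to 0.98, and condensin (3 of 5) by 0.14 to 0.67. Kif11, the motor that pushes spindle poles apart, read 4.75, 4.82 and 4.93 in DDC against 4.49 and 4.75 in UTR. Nusap1, which bundles spindle microtubules, was above UTR on every DDC array (5.98, 6.15 and 5.84 against 5.25 and 5.40) with a difference of 0.67 ± 0.12. Prc1, which bundles the spindle midzone, read 5.21, 5.92 and 6.35 in DDC, 4.93, 5.04 and 4.99 in CDE, and 4.93 and 4.76 in UTR, a difference from UTR of 0.98 ± 0.28. The DDC arrays did not overlap with either other YFP+ group. Racgap1, a GTPase regulator of the cleavage furrow, read 5.96, 5.95 and 6.08 in DDC, 5.37, 5.61 and 5.53 in CDE, and 5.19 and 5.37 in UTR. The 3 DDC arrays were close together and above all other YFP+ arrays, and the difference of 0.72 ± 0.11 gave the lowest adjusted p of the 49 genes in this comparison. Of condensin, which compacts chromosomes, Ncapd2 differed from UTR by 0.67 ± 0.22, while Smc2 (5.94, 6.55 and 6.77 in DDC against 6.36 and 6.20 in UTR) overlapped. Foxm1, a transcription factor of G2 genes, read 5.37, 6.46 and 5.56 in DDC against 5.30 and 5.50 in UTR and rested on DDC replicate 2.

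The remaining genes were also compared between DDC and UTR. Among the checkpoint and separation genes, Bub1b and Ttk, both checkpoint kinases, differed by 0.60 ± 0.27 and 0.52 ± 0.22 and overlapped with UTR, and separase (Espl1), which cuts cohesin, differed by 0.14 ± 0.13. Aurka, the kinase of spindle poles, and Melk, another kinase, were above UTR on every DDC array by 0.59 ± 0.20 and 0.55 ± 0.20. So were Birc5 (survivin) and Cdca8 (borealin), the passenger subunits that bring Aurkb to centromeres, by 0.63 ± 0.23 and 0.47 ± 0.16, while Incenp, their scaffold, overlapped (0.34 ± 0.16). At the kinetochore, Cenpe, a kinesin, was above UTR by 0.55 ± 0.19, whereas Nuf2 and Spc25 of the Ndc80 complex and Cenpk of the inner kinetochore overlapped.

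Tpx2, which targets Aurora A to the spindle, Kif2c, a microtubule depolymerase, and Kif4, a chromosome-bound kinesin, were above UTR on every DDC array by 0.47 ± 0.16, 0.46 ± 0.17 and 0.16 ± 0.09. Of the cytokinesis genes, Ect2, the RhoA activator, was above UTR by 0.62 ± 0.20 and Kif20a by 0.39 ± 0.13, while Anln, an actin-binding protein of the furrow, and Kif20b overlapped. Anln read 4.60, 6.10 and 5.81 in DDC, 4.47, 4.83 and 4.95 in CDE, and 4.84 and 4.87 in UTR, so DDC replicate 1 was below both UTR arrays. Pbk had the same shape, with 4.65, 6.30 and 5.83 in DDC, 4.62, 4.94 and 4.69 in CDE, and 5.06 and 4.81 in UTR. In condensin, Ncapg and Smc4 were above UTR on every DDC array by 0.33 ± 0.11 and 0.38 ± 0.17, and Ncaph overlapped.

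The DDC levels stood differently to YFP- cells from gene to gene, a comparison made after the values were seen and given without a test. Cenpf, a kinetochore protein of G2, read 5.75, 5.55 and 5.75 in DDC, 5.10, 5.42 and 5.38 in CDE, 5.25 and 5.30 in UTR, and 5.40, 5.20 and 5.32 in YFP-. Its 3 DDC arrays were above the 8 others. Ncapd2 read 6.85, 7.39 and 7.69 in DDC, 6.54, 6.80 and 6.80 in CDE, 6.67 and 6.61 in UTR, and 6.85, 6.95 and 6.42 in YFP-, and DDC replicates 2 and 3 were above every YFP- array. Smc4, also of condensin, read 7.47, 7.84 and 7.86 in DDC, 7.67, 7.72 and 8.08 in CDE, 7.46 and 7.22 in UTR, and 9.05, 9.54 and 8.73 in YFP-, so no DDC array came near YFP-.

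**Figure D2:**
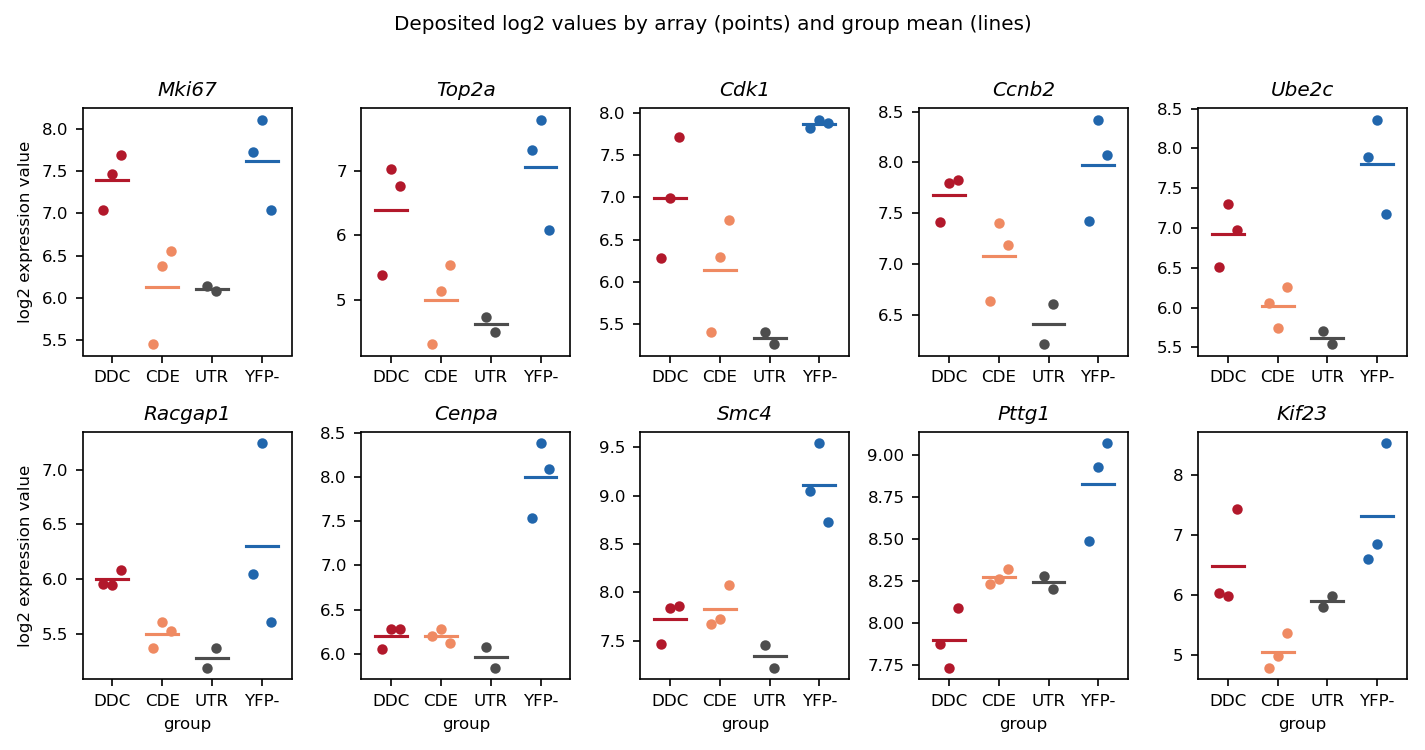
Each point is the deposited log2 value of 1 array, each line a group mean, and groups run from DDC to YFP-. Mki67, Ube2c and Racgap1 lie above CDE and UTR on all 3 DDC arrays, Pttg1 lies below them, and Cenpa and Smc4 are near the other YFP+ groups and below YFP-.

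The DDC and CDE diets were also compared with each other. The mean was higher in DDC for 45 of 49 genes, against 53% of all genes, with a median difference of 0.42 log2 units, against 0.01. In 18 of 49 genes the 3 DDC arrays lay above the 3 CDE arrays, against 9.64% of all genes, and 24 had an unadjusted p under 0.05 with a higher mean, against 6.52%. None passed the adjusted threshold on the higher side, which 0.418% of all genes passed, and the lowest adjusted p was 0.068, for Racgap1. The largest differences were those of Kif23 (1.44 ± 0.36), a kinesin of the spindle midzone, Top2a (1.40 ± 0.45), Mki67 (1.27 ± 0.29), Ube2c (0.91 ± 0.21), Cdk1 (0.85 ± 0.41) and Pbk (0.84 ± 0.36), a mitotic kinase. Kif23 read 6.04, 5.99 and 7.43 in DDC, 4.79, 4.98 and 5.37 in CDE, and 5.80 and 5.99 in UTR, so all 3 CDE arrays were below both UTR arrays and DDC replicates 1 and 2 were near UTR. Without DDC replicate 1, 38 genes did not overlap, against 16.3% of all genes, and 33 had an unadjusted p under 0.05 with a higher mean, against 6.88%. Without CDE replicate 1, the count by unadjusted p was 9, against 4.34%. CDE replicate 1 was the lowest CDE array for 34 of 49 genes, against 33.2% of all genes.

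CDE against untreated YFP+ cells gave smaller differences. The median difference was 0.11 log2 units, against 0 over all genes, and the mean was higher in CDE for 38 of 49 genes, against 51% of all genes. In 12 genes all 3 CDE arrays lay above both UTR arrays, against 11.5% of all genes, and 3 (Ccnb2, Nusap1 and Smc4) had an unadjusted p under 0.05 with a higher mean, against 3.58%. None passed the adjusted threshold, which 0% of genes passed in this direction. The largest differences were Kif23 (-0.84 ± 0.40), Cdk1 (0.82 ± 0.45), Ccnb2 (0.67 ± 0.24), Smc4 (0.48 ± 0.17), Spc24 (0.43 ± 0.24) and Ube2c (0.40 ± 0.23). Mki67 differed by 0.02 ± 0.32, with a 95% interval of -0.71 to 0.76. These arrays therefore do not exclude a rise or a fall within that interval. Without CDE replicate 1, 26 genes did not overlap with UTR, against 16.8% of all genes. The CDE and DDC comparisons share the 2 UTR arrays.

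**Figure D3:**
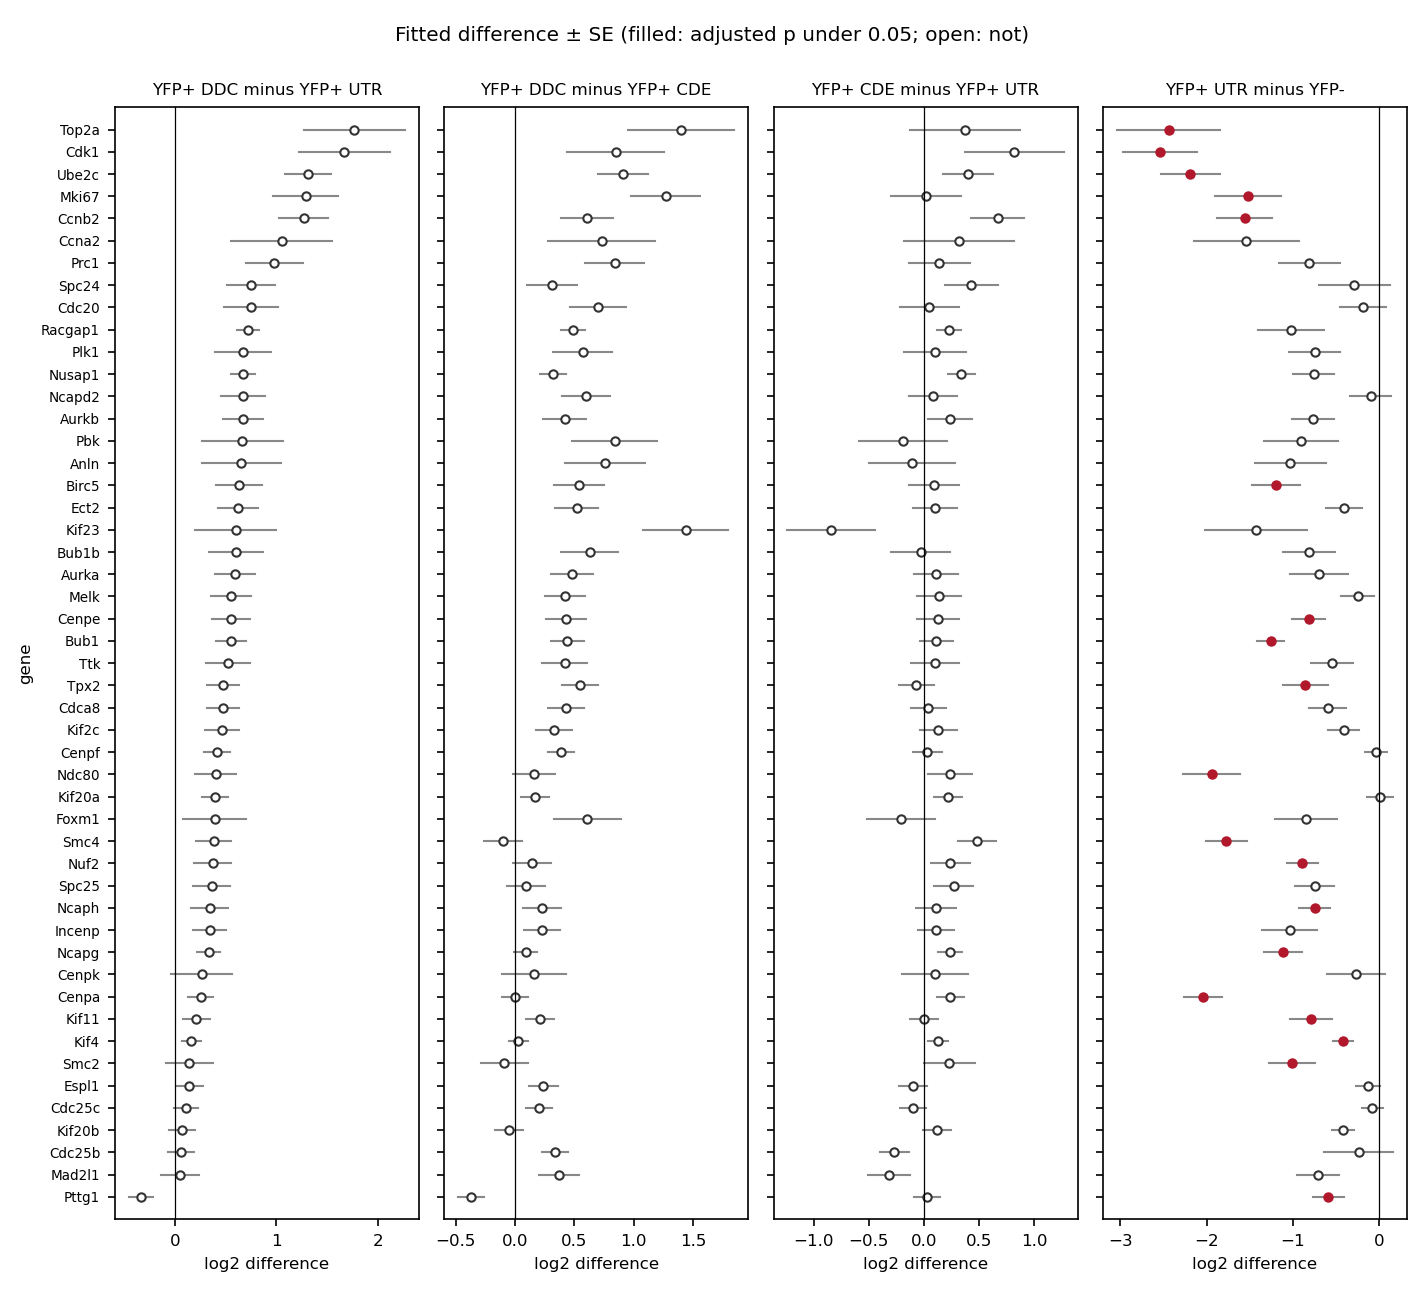
Points are fitted log2 differences and lines ± 1 SE, with genes ordered by DDC minus UTR and each panel on its own axis. Filled points pass an adjusted p of 0.05, and only the UTR minus YFP- panel has any. Pttg1 is the only gene below 0 in DDC minus UTR.

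Untreated YFP+ cells were then set against YFP- cells. The difference was negative for 48 of 49 genes, against 50.9% of all genes, with a median of -0.79 log2 units, against -0.01, and in 40 of 49 the UTR arrays lay below all YFP- arrays, against 20.5% of all genes. By limma, 19 of 49 fell, against 8.46% of all genes, and 0 rose, Kif20a being the only gene above 0 (0.01 ± 0.15). The genes that fell were Mki67, Top2a, Cdk1, Ccnb2, Bub1, Ube2c, Pttg1, Birc5, Cenpa, Cenpe, Ndc80, Nuf2, Kif11, Kif4, Tpx2, Ncapg, Ncaph, Smc2 and Smc4. Condensin had 4 of 5 genes, the centromere and kinetochore 4 of 8, and the mitotic kinases 0 of 4 and cytokinesis 0 of 7, where limma's unadjusted p was under 0.05 for 1 and 5 genes. The 6 largest were Cdk1 (-2.54 ± 0.43, adjusted p = 0.00333), Top2a (-2.44 ± 0.60), Ube2c (-2.19 ± 0.34), Cenpa (-2.04 ± 0.22, adjusted p = 0.000347), Ndc80 (-1.94 ± 0.33) and Smc4 (-1.77 ± 0.24), all by limma. Smc4, an ATPase of condensin, had both UTR arrays below every YFP- array. Cdk1, Bub1, Cenpa and Smc4 passed in all 18 alternatives, Pttg1 in 4 of 18 and Kif4 in 3 of 17. The fit of these 5 arrays alone called 4 of the 49 genes lower, against 1.73% of all genes. The count was 8 without UTR replicate 1 and 8 without UTR replicate 2, against 4.25% and 4.11%. The UTR means of Bub1 (4.07), Ndc80 (4.15) and Kif4 (3.97) lay under 4.33, the lower quartile of all values, so these differences are set against levels near the low end of the arrays' range.

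This comparison sets cells with high duct markers against a mixed population. The summed linear signal of the 12 hepatocyte markers was higher in UTR (18320 to 19160) than in YFP- (8133 to 13530), while the list means overlapped. Of these markers 4 passed higher and 1 lower in UTR. Endothelial markers averaged 5.21 to 5.69 in UTR and 9.97 to 11.65 in YFP-, and all 10 passed lower, as did 7 of 12 macrophage markers. The summed linear signal of lymphocyte markers ran from 855 to 2293 in UTR and from 650 to 24410 in YFP-. That of the neutrophil list ran from 333 to 909 in UTR and from 1109 to 13770 in YFP-. In UTR, 1 gene gave the most to the lymphocyte sums: Ltb, at 10.89 and 8.91. Ltf, at 9.14 on UTR replicate 2, gave the most to the 909. YFP- replicate 2, which held the lymphocyte signal, also had the highest YFP- mean of other lists. These were plasma cell (8.63), dendritic cell (8.46), neutrophil (8.39) and erythroid (6.44) markers. The same array was the highest YFP- array for 30 of 49 genes, against 33.3% of all genes. Without YFP- replicate 2, 19 of 49 genes were called lower in UTR, 15 of them among the 19 named above, against 9.53% of all genes. The median was then -0.72. The part of the marker lists in the result was not tested. Against the unweighted mean of the 3 YFP+ groups, 24 of 49 genes fell, against 14.3% of all genes, and with array weights 8 of 49, against 8.83%.

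Markers of other cell types were set beside the differences among the YFP+ groups, as list means and as summed linear signal. The lymphocyte list (14 genes) averaged 4.96 to 5.09 in DDC, 4.90 to 5.02 in CDE and 4.85 to 5.02 in UTR, and its sums were 1821 to 1935 in DDC, 1517 to 1580 in CDE and 854.9 to 2293 in UTR. The DDC sums were above the CDE sums and within the UTR range. Of the list, Ltb gave the most to these sums. It read 10.53, 10.48 and 10.61 in DDC, 10.22, 10.20 and 10.18 in CDE, and 10.89 and 8.91 in UTR. The macrophage list (12 genes) averaged 5.64 to 5.93 in DDC, 6 to 7.11 in CDE and 6.45 to 6.56 in UTR, so DDC was the lowest group. Its sums were 866.2 to 1279 in DDC, 1242 to 2861 in CDE and 1520 to 1709 in UTR. The neutrophil list (12 genes) averaged 4.65 to 5.29 in DDC, 4.63 to 5.20 in CDE and 4.70 to 5.12 in UTR, and the groups overlapped.

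The hepatocyte list (12 genes) had sums of 14170 to 17080 in DDC, 20430 to 23730 in CDE and 18320 to 19160 in UTR, so the DDC arrays were below both other YFP+ groups. Its means overlapped, at 7.90 to 7.99 in DDC, 7.91 to 8.71 in CDE and 7.85 to 8.01 in UTR. Ttr, Alb and Serpina1c gave the most to these sums. Of the list, 1 gene fell in DDC against CDE: Alb (albumin), by 0.73 on the log2 scale (SE 0.09, adjusted p = 0.0162 by limma). Fgb, of the same list, went the other way against UTR, at 10.81, 9.73 and 10.16 in DDC and 7.08 and 7.26 in UTR. In CDE it read 7.72, 11.22 and 7.62. No gene of the list passed the adjusted threshold for DDC against UTR. Of the stellate and fibroblast list, 1 of 10 genes rose in DDC against UTR: Rgs5, a pericyte gene. It read 11.81, 11.65 and 11.44 in DDC and 10.11 and 9.79 in UTR. In CDE it read 10.95, 11.59 and 11.15, and in YFP- 8.36, 5.19 and 7.20, so every YFP+ array was above the YFP- arrays. With all 11 arrays in the fit the call on Rgs5 was lost, and 1 gene in all was called for DDC against CDE. The list's sums, to which Rgs5 gave the most, were 3148 to 3959 in DDC, 2371 to 3824 in CDE and 1305 to 1497 in UTR, while its means were 5.69 to 5.80 in DDC and 5.69 to 5.75 in UTR. Dcn (decorin), of the same list, was lower, at 4.58, 4.18 and 4.93 in DDC against 5.45 and 5.69 in UTR. Alb, Fgb, Rgs5 and Dcn are named after their values were seen, and the part of these lists in the mitotic differences was not tested.

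Other cell cycle genes were listed beside the 49. Of 75 further mitotic genes, 63 had a higher mean in DDC than in UTR, against 52.8% of all genes, with a median of 0.24. In 35 all DDC arrays lay above UTR, against 12.7%, and 25 had an unadjusted p under 0.05 with a higher mean, against 4.74%. By limma, 0 passed the adjusted test. Of 47 DNA replication genes, 42 had a higher mean, also against 52.8%, with a median of 0.29. Of these, 1 rose, against 0.0949% of all genes: Uhrf1, by 1.32 ± 0.15 (adjusted p = 0.0308 by limma). Uhrf1 keeps DNA methylation through replication. Uhrf1 also rose against CDE by 0.80 ± 0.13 (adjusted p = 0.0396), and so did Iqgap3, a scaffold protein of dividing cells, by 0.74 ± 0.12 (adjusted p = 0.0341), both by limma. With all 11 arrays in the fit, 0 genes were called for DDC against UTR and 0 as higher for DDC against CDE, so these 3 calls were lost. The 23 transcription regulators had a median of 0.10, and the 17 genes of the anaphase-promoting complex and its partner proteins -0.01. The 11 cohesin genes had a median of -0.18, with 7 of 11 not overlapping below UTR, against 11.8% of all genes. Cohesin, the ring that holds sister chromatids, thus had the opposite sign to the mitotic genes in DDC, without a passing gene: Stag2, a cohesin subunit, differed by -0.50 ± 0.12 from UTR and by -0.57 ± 0.11 from CDE.

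Against YFP- cells, the listed genes split. Of the 75 further mitotic genes 12 fell in UTR, against 8.46% of all genes, and 1 rose, against 10.4%. Cdkn3, a CDK phosphatase, was at -2.51 ± 0.44 and Wee1, the kinase that restrains CDK1, at 1.28 ± 0.27. Of the 47 replication genes 10 fell and 1 rose, against the same shares, led by Dbf4, the activator of the CDC7 kinase, at -2.78 ± 0.38. Of 8 listed genes for D-type cyclins, G-type cyclins and CDKs, 2 rose and 2 fell. Ccnd1 and Cdk6, cyclin D1 and its kinase of G1, rose by 1.43 ± 0.25 and 0.94 ± 0.16. Ccng1 and Ccng2, which are G-type cyclins and not cyclins of G1 phase, differed by -0.96 ± 0.20 and -0.94 ± 0.20. The CDK inhibitor Cdkn1a fell by 1.10 on the log2 scale. All of these passed limma's adjusted threshold. Ccnd1 averaged 10.80 in DDC, against 11.12 in UTR (-0.31 ± 0.14, not passing), the opposite sign to most of the mitotic genes. The 8 listed cyclins and CDKs, G-type cyclins included, had a median of 0.17 in DDC minus UTR, with 5 positive and 3 negative.

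**Figure D4:**
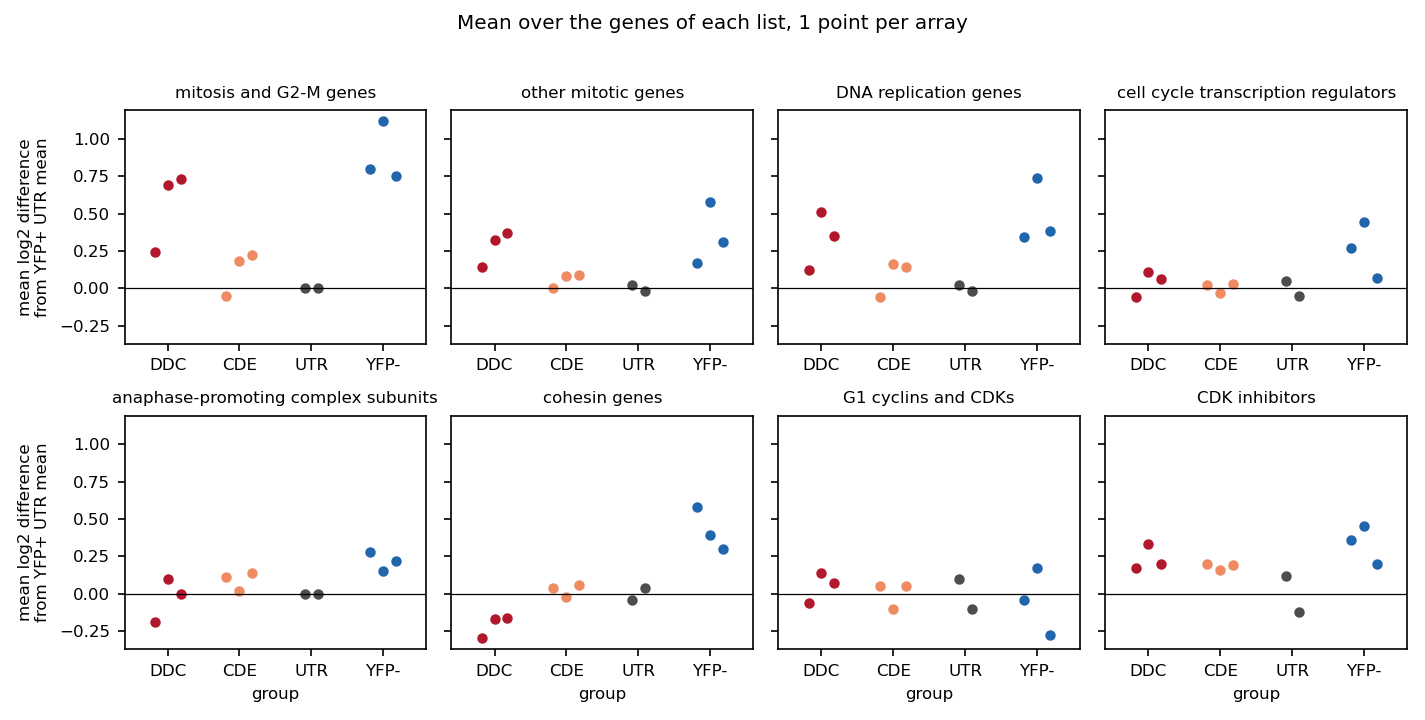
Each point is the mean over a list's genes on 1 array, as log2 difference from the UTR mean. The mitosis and G2-M genes, the other mitotic genes and the replication genes lie above 0 on all DDC arrays. The cohesin genes lie below 0 on them. On the YFP+ arrays the regulators and the listed cyclins and CDKs lie near 0. The panel titled G1 cyclins and CDKs also holds the G-type cyclins Ccng1 and Ccng2.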

How the data were processed

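The authors deposited 1 log2 value per feature and array of an Affymetrix mouse whole-transcript array. Background correction, normalization, summary into features and log base are not stated in what was used here, and base 2 is inferred from values of 2.55 to 13.57. Of 25206 features, 23185 have 1 gene symbol and 2021 are unlisted. No further normalization was applied.

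A group-means model was fitted by limma (3.58.1, under R 4.3.3) with eBayes. The comparisons with YFP- cells used all 11 arrays (7 residual degrees of freedom), and those among YFP+ groups the 8 YFP+ arrays (5). Tests were two-sided with p-values adjusted by Benjamini-Hochberg over all 23185 genes, at 0.05. Errors are SE of the fit. A group of arrays was called not overlapping where every array of it lay beyond every array of the other. The number of arrays limits the precision.

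All members past the threshold could be named, with values by array for the 6 largest differences of each comparison and for a fixed set of key genes. Values by array of Racgap1, Pttg1, Bub1, Nusap1, Cenpf, Anln, Ncapd2, Hbb-b1, Fgb, Rgs5, Dcn, Ltb and Ltf were added after they were seen. Members and lists were chosen with earlier results of these data known. Of 194 further listed genes 188 were measured. The fit was tested on simulated data with 200 changed genes. Alternatives were the arrays in the fit, array weights, trended and robust eBayes, a filter on low values, quantile normalization, median centring, a replicate block, and leaving out each array. After seeing the data, the counts of non-overlapping genes and of unadjusted p under 0.05 were added to these. Same-numbered arrays deviated together with correlations of -0.07 to 0.13 over 15 pairs, and 1 pair was over 0.1. Arrays of other numbers ran from -0.15 to 0.15 over 30 pairs. With groups of 2 or 3 arrays, these values cannot tell whether the numbers pair the samples. Promoter windows are those of RefSeq on GRCm38.p6.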

Additional observations from a re-analysis of the deposited data

How the results depend on the processing

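No member passed the adjusted threshold in any of the 3 comparisons among YFP+ groups under any alternative run. For UTR against YFP-, 4373 genes and 19 members were called. The 5 arrays of these groups alone gave 931 and 4, and leaving out 1 array gave 2306 to 5817 and 8 to 24. For the mean of the YFP+ groups against YFP-, array weights gave 4179 genes and 8 members, against 7083 and 24. For CDE against UTR, 0 genes were called, and 1 each with array weights, with trended and robust eBayes and with median centring; leaving out 1 array gave 0 to 46. For DDC against UTR, 37 genes were called, 0 with all 11 arrays, 0 with the replicate block, and 0 to 103 leaving out 1 array. For DDC against CDE, 269 genes were called, 1 with all 11 arrays, 61 with the replicate block, and 16 to 211 leaving out 1 array. Whether the replicate numbers pair the samples is not known. The cause of these moves was not tested, except that fewer arrays were in the fit where arrays were left out.

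Mki67 in CDE against UTR was 0.02 and reversed to -0.16 with the replicate block, and it ran from -0.19 to 0.37 leaving out 1 array. With all 11 arrays in the fit, members at an unadjusted p under 0.05 with a higher mean were 0 for CDE against UTR. For DDC against CDE they were 15. The shares of all genes were 1.44% and 2.91%. Leaving out 1 DDC or CDE array, these counts ran from 1 to 6 for CDE against UTR, where the shares of all genes were 3.01% to 3.87%. For DDC against UTR they ran from 18 to 35, against 4.22% to 5.7%. For DDC against CDE they ran from 9 to 33, against 4.34% to 6.88%. Leaving out 1 array of either group, members that did not overlap ran from 15 to 26 for CDE against UTR. The 26, without CDE replicate 1, stood against 16.8% of all genes. The 15 stood against 17.8%, 18.6% and 26.9%, without CDE replicate 2, CDE replicate 3 and UTR replicate 2. For DDC against CDE the count ran from 18 to 38. These stood against 14.9% without DDC replicate 2 and 16.3% without DDC replicate 1. Where 1 UTR array was left, it was assumed to vary like the other groups. Level and signal over background limit the low genes: 1 of the 49 members lay under the lower quartile of 4.33 in its mean over all arrays, and 4 did in the mean of at least 1 group.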
